A study of Mus musculus with 24 samples.

Results

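The promoters described here belong to developmental transcription factors grouped as genes normally held silent in B cells. They were measured in germinal center (GC) B cells. The promoters were defined as the consensus ATAC-seq peaks within 2.5 kb of any annotated transcription start site (TSS) of 58 genes: HOX genes of the 4 clusters, PAX, LHX, NKX and other homeobox genes, and GATA, SOX, TBX, FOX, WT1 and PRDM14 genes. This gave 79 peaks of 65483, and 48 of the 58 genes had at least 1. The other 10 (Dlx5, Hoxa2, Hoxa5, Hoxb3, Hoxc8, Pax7, Sox17, Sox9, Tbx3 and Tbx5) had no consensus peak in the window and are not followed further. Of the 79 peaks, 52 overlapped a TSS of their gene, 3 were shared by a pair of member genes, 4 also lay within 2.5 kb of the TSS of another protein-coding gene and 29 within 2.5 kb of a noncoding TSS.

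ATAC-seq uses the Tn5 transposase to cut accessible DNA, so the number of fragments in a peak measures how open the chromatin is there. GC B cells were sorted from spleens of mice 10 days after immunization with sheep red blood cells. All groups carried the Cg1Cre allele (Cg1Cre+/-), whose Cre acts in B cells that transcribe the Cγ1 constant region, as GC B cells do. WT mice (n = 4) carried nothing else, C mice (n = 4) also carried 1 floxed Crebbp allele (Crebbp fl/+), K mice (n = 4) 1 floxed Kmt2d allele (Kmt2d fl/+), and CK mice (n = 5) both, so each mutant group models the loss of 1 copy and not a full knockout. There was 1 library per mouse.

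Developmental transcription factors of this kind are held silent outside their own lineage by the Polycomb complexes. PRC2, with the catalytic subunit EZH2, trimethylates H3K27, and PRC1 binds that mark and compacts chromatin. Their promoters are mostly CpG islands, and EZH2 is abundant in GC B cells. CREBBP acetylates histones, H3K27 included, and KMT2D methylates H3K4, both mainly at enhancers. Neither RNA nor a histone mark was used here, so "silent" is the name of the gene group, and only the accessibility of its promoters was measured.

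The sequence of some of these promoters is shown because, over all promoter peaks, gains in CK were more frequent at higher GC content, as described below. Whether sequence plays a part in the members' changes was not tested. Of the 58 genes, 36 had a promoter in RefSeq (GRCm38.p6). The stretches shown are the 250 bases upstream of the TSS, 5′ to 3′ on the strand of the gene, with every CpG dinucleotide (the letters CG, which read the same on both strands) in capitals. Foxa1 (chr12:57546112-57546361, minus strand), Foxd3 (chr4:99656049-99656298, plus strand), Six2 (chr17:85688255-85688504, minus strand) and Hoxa13 (chr6:52260881-52261130, minus strand) are CpG-dense and gained accessibility in CK. Hoxa10 (chr6:52240855-52241104, minus strand) also gained accessibility but holds fewer CpGs than most members, and Nkx6-1 (chr5:101664712-101664961, minus strand) is CpG-dense but did not pass the test. These 6 were chosen after their values were seen, and each stretch lies inside a member peak.
Foxa1: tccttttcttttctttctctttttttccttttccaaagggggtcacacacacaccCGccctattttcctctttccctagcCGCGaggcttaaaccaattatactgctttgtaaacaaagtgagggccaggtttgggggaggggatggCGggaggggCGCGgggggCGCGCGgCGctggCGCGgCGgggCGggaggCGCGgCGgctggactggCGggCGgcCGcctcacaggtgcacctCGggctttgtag
Foxd3: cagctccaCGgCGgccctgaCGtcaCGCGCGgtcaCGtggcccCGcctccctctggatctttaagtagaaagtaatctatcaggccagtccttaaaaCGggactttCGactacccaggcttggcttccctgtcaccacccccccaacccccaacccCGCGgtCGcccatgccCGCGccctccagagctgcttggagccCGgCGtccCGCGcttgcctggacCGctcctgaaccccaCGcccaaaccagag
Six2: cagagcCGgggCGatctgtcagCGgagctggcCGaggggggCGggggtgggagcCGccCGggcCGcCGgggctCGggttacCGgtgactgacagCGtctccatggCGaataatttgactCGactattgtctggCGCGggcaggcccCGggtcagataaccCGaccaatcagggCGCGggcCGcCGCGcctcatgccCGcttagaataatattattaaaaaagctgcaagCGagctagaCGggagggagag
Hoxa13: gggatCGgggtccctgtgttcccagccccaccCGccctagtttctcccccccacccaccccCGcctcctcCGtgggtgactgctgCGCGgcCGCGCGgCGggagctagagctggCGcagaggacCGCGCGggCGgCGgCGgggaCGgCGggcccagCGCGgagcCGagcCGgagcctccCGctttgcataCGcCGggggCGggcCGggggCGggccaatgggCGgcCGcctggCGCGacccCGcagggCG
Hoxa10: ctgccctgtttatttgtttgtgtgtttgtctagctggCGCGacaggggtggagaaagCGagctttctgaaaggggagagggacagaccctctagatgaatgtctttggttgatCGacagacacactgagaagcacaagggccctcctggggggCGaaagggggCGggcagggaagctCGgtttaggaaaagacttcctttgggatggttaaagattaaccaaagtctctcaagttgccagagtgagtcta
Nkx6-1: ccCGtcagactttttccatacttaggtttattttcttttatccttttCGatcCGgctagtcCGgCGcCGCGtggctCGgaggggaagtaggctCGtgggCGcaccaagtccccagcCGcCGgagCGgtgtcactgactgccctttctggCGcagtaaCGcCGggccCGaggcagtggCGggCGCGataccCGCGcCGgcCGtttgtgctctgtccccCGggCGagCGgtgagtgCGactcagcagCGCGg
The number of CpGs was 21 in Foxa1, 21 in Foxd3, 26 in Six2, 35 in Hoxa13, 7 in Hoxa10 and 30 in Nkx6-1. Over the 36 promoters the median was 13.5 (range 3 to 35), and over all 27025 RefSeq genes it was 6. At least 10 CpGs were present in 23 of the 36 (63.9%) and in 38.2% of all genes. The median was 15 for the 17 genes with a peak gained in CK and 13 for the 19 without one, a difference that was not tested.

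The label of the group was checked against the level of its promoters in WT. A level is given as CPM per kb of peak, where CPM is the TMM-scaled count in a peak relative to the library's fragments in peaks, so that peaks of unequal length can be compared. The median member peak had 2.11 CPM per kb in WT (range 0.75 to 14.6), against 14.3 over the 20036 peaks within 2.5 kb of a protein-coding TSS. Of the 79 members, 78 were under that median and 68 were in the lowest quartile of promoter peaks, under 3.96 CPM per kb. They were not at zero. The median member peak held 62.0 fragments per WT mouse, although 36 held fewer than 50, where counting error is large. By comparison, the promoter of Pax5, the factor that maintains B cell identity, reached 39.3 CPM per kb in its peak of 122 ± 5.54 CPM (SD, n = 4) in WT, and the promoter of Ezh2 reached 39.9.

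**Figure D1:**
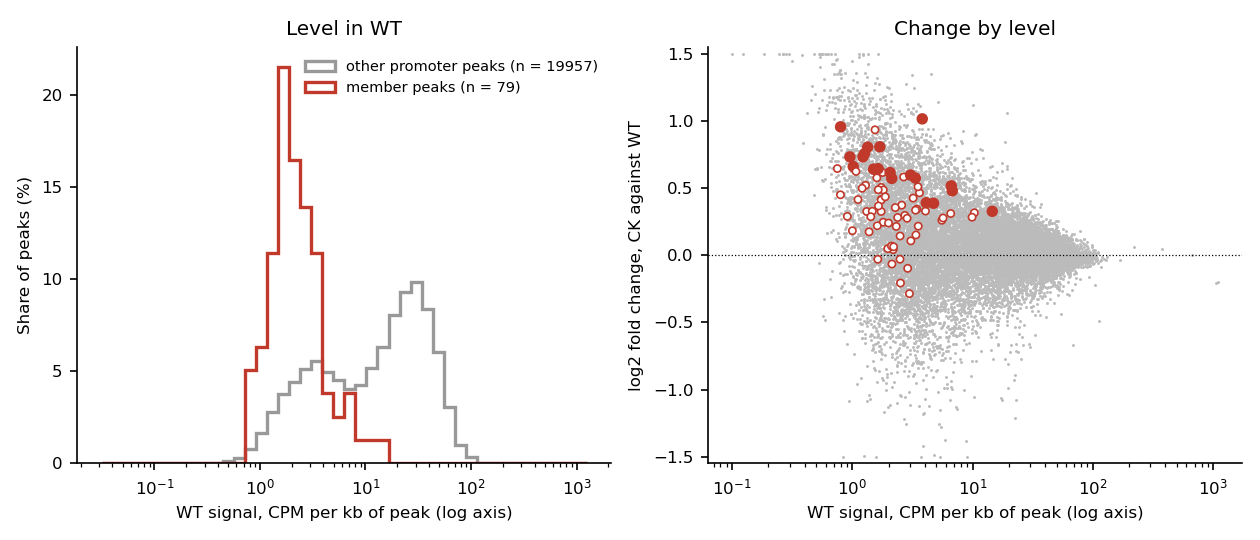
Left, share of peaks (%) by WT level (CPM per kb of peak, log axis) for the 79 member peaks and all other promoter peaks. Right, log2 fold change of CK against WT by WT level, with members called at adjusted p under 0.01 as filled circles, other members as open circles and other promoter peaks in gray (values beyond 1.5 are drawn at the edge, and 0.1 is the lowest level drawn). The members sit at the low end, with a median of 2.11 CPM per kb, and most lie above 0.

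At the upper end stood a 2.5 kb peak inside Pax6, the master regulator of eye development, at chr2:105674178-105676718, with 14.6 CPM per kb. It overlaps a Pax6 TSS and was the only member above the promoter median. Next came a Hoxa7 peak at chr6:52221305-52222259 with 10.3 CPM per kb and the promoter of Sox1, a neural progenitor factor, with 9.89. Lhx9, which acts in the developing gonad, had 2 peaks among the 8 highest, one 1586 bp from the nearest TSS with 6.77 CPM per kb and another over a TSS with 5.55. A second Hoxa7 peak (6.64), Foxc1 (6.57) and Hoxc10 (5.67, a peak also within reach of a Hoxc5 TSS) completed these 8. The lowest were a peak near Lhx2 (0.750 CPM per kb), one near Gata4 (0.796), the promoter of Six2 (0.798), one near Hoxd10 (0.908) and the promoter of Six3 (0.954). The lowest Lhx2 peak held a mean of 3.5 fragments per WT mouse, too few to measure a change.

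Accessibility summed over the 79 peaks was highest in CK. The sum in each WT mouse was 364, 355, 332 and 314 CPM. C mice had 388, 395, 375 and 372 CPM. K mice had 406, 412, 402 and 391.9 CPM. CK mice had 461, 436, 446, 436 and 452 CPM. The ranges of WT and CK did not overlap with those of any other group, whereas those of C and K did. WT averaged 341 ± 22.9 CPM, C 382 ± 10.95, K 403 ± 8.47 and CK 446 ± 10.8 (SD, n = 4, 4, 4 and 5). No test was run on this sum, since the members were chosen with earlier results of these data in view. The share of all peak fragments that fell in promoter peaks was higher in K and CK than in WT and C, averaging 60.9% ± 0.864 for WT, 60.9% ± 0.769 for C, 62.5% ± 1.31 for K and 62.6% ± 0.537 for CK.

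**Figure D2:**
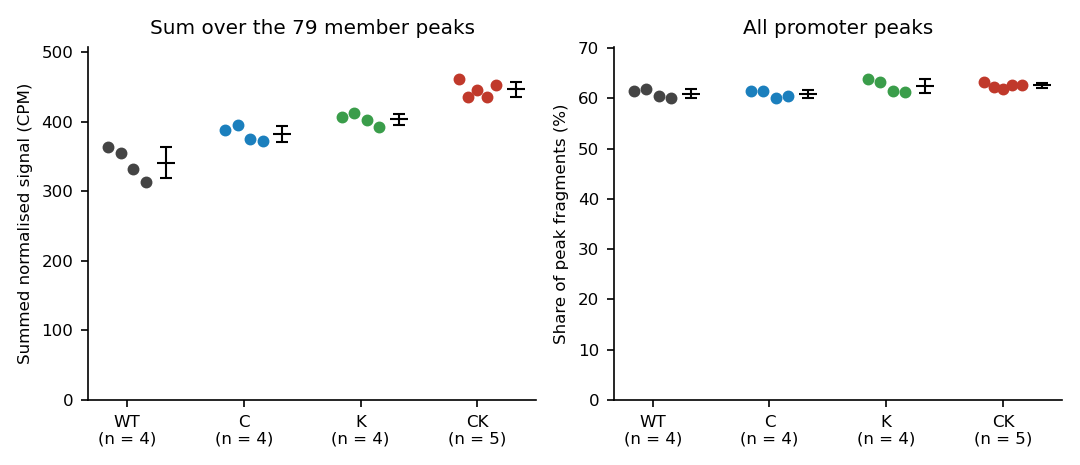
Each point is 1 mouse, and bars give the mean and SD of each genotype. Left, CPM summed over the 79 member peaks, where the 5 CK mice (436 to 461) lie above all others and the 4 WT mice (314 to 364) below all others. Right, the share of peak fragments (%) in all promoter peaks, which varied between 60.0% and 63.8%.

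The first comparison asked which of these promoters changed when both genes had lost 1 copy. In CK against WT, 19 of the 79 peaks (24.1%), near 18 genes, gained accessibility and 0 lost it (edgeR quasi-likelihood test, adjusted p under 0.01 with Benjamini-Hochberg adjustment over all 65483 peaks; DESeq2 called 22 gained, against 3.94% of all peaks, and 0 lost). Over all peaks edgeR called 3.54% gained and 3.3% lost, and over the 20036 promoter peaks 7.34% gained and 1.9% lost. The median log2 fold change of the members was 0.37, against 0.00 over all peaks and 0.04 over promoter peaks. The change was above 0 for 73 of the 79, against 50.6% of all peaks and 62.3% of promoter peaks. An unadjusted p under 0.05 was found for 47 (28.9% of all peaks), all of them gains. At adjusted p under 0.05, 37 were gained (7.85% of all peaks), and 12 of the 19 changed by more than 1.5-fold. Every CK mouse was above every WT mouse in 30 of the 79 peaks, against a background of 6.59% over all peaks and 11.7% over promoter peaks, and 0 had every CK mouse below every WT mouse (6.39% and 3.82%).

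Scaling for GC content and the choice of WT mice lowered the number of gains. With offsets that center the counts within 20 bins of GC content, 6 of the 19 remained past the threshold (Foxa1, Hoxa7, Prdm14, the Pax6 peak at Pax6os1, Hoxa10 and Lhx9), all 19 stayed above 0 and the median was 0.25, while promoter peaks as a whole went from 1470 gained and 381 lost to 602 gained (3%) and 1663 lost (8.3%), and all peaks to 2.24% gained and 5.1% lost. Without WT replicate 3 there were 10 gains, without WT replicate 4 there were 11, and without both there was 1, Foxa1, with a median of 0.26. The fit without both held 2 WT mice. Fewer mice lower the power for every peak, and the shares of all peaks called in these fits are not given here. The counts alone therefore do not set the members apart from other peaks.

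WT replicates 3 and 4, whose sums were the lowest of all 17 mice, were also the WT libraries without fragments on the proximal Y chromosome. The mice are described by the study as female. Over 11 Y chromosome peaks, 9 of the 17 libraries (WT 1 and 2, C 1 and 2, K 1, 3 and 4, CK 1 and 4) nonetheless had 73.8 to 85.2 CPM, and the other 8, called here without Y signal, had at most 0.0558. Within the 9 libraries with Y signal the median member change in CK was 0.29 with 1 peak called, and within the 8 without it 0.47 with 1 called, Foxa1 in both cases. With Y signal 2 CK mice were compared with 2 WT mice, and without it 3 with 2, so the power was low for every peak. With the presence of Y signal as a covariate, 20 members were called in CK. With the total signal over the Y chromosome 4 were (Foxa1, Hoxd8, Msx1 and Hoxa13). That total did not follow the presence of Y signal. It was 278 CPM in WT replicate 1, with Y signal, and 279 in WT replicate 3, without it. The highest total, 1009 CPM, was in C replicate 4, also without it. Totals ranged from 246 to 567 CPM in WT and from 425 to 723 in CK, so the fit with them does not isolate sex. The shares of all peaks called in the fits by Y signal are not given here, so their counts alone are no result about the members. The part of sex in the result was not tested beyond these values.

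Fork-head factors, which open chromatin for other factors, held the largest change. The promoter of Foxa1, the pioneer factor of gut and breast epithelium, at chr12:57545056-57547346, had 9.10, 9.40, 8.39 and 8.03 CPM in WT mice and 19.99, 15.6, 15.6, 17.5 and 19.6 in CK mice. C mice had 12.5, 13.6, 10.4 and 11.8 CPM and K mice 12.7, 12.6, 15.6 and 13.9. No mutant mouse overlapped with WT. The level was 2.02-fold higher in CK (log2 fold change 1.02 ± 0.10 (SE), edgeR adjusted p = 1.11e-06). With GC content bins it was 0.86 with an adjusted p of 5.51e-06, and it was called in CK under each of 31 alternative fits. Of the other gains described below, the call held in 9 of 31 for Hoxa3 and Irx3, 12 for the Lhx9 peak, 19 for the peak of Hoxa10 and Hoxa9, 20 for Hoxc4, and 21 to 27 for the rest.

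The promoter of Foxd3, a factor of neural crest and pluripotent cells, at chr4:99655864-99658247, had 5.53, 5.48, 4.45 and 4.15 CPM in WT and 7.98, 6.95, 7.05, 7.67 and 7.95 in CK. C mice (5.10, 5.01, 4.55 and 3.93 CPM) lay within the range of WT apart from the lowest, and K mice (6.85, 5.95, 5.97 and 5.86) lay between WT and CK. The change in CK was 0.62 ± 0.11 (log2, SE; edgeR adjusted p = 0.000564), and 0.33 with an adjusted p of 0.0231 with GC content bins. Foxc1, a factor of mesoderm and eye, was at 16.5 ± 1.04 CPM in WT and 20.4 ± 2.74 in CK and was not called against WT (log2 0.31, edgeR adjusted p = 0.0200). Foxa2, the partner of Foxa1 in gut endoderm, had 3 small peaks, none of which was called.

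**Figure D3:**
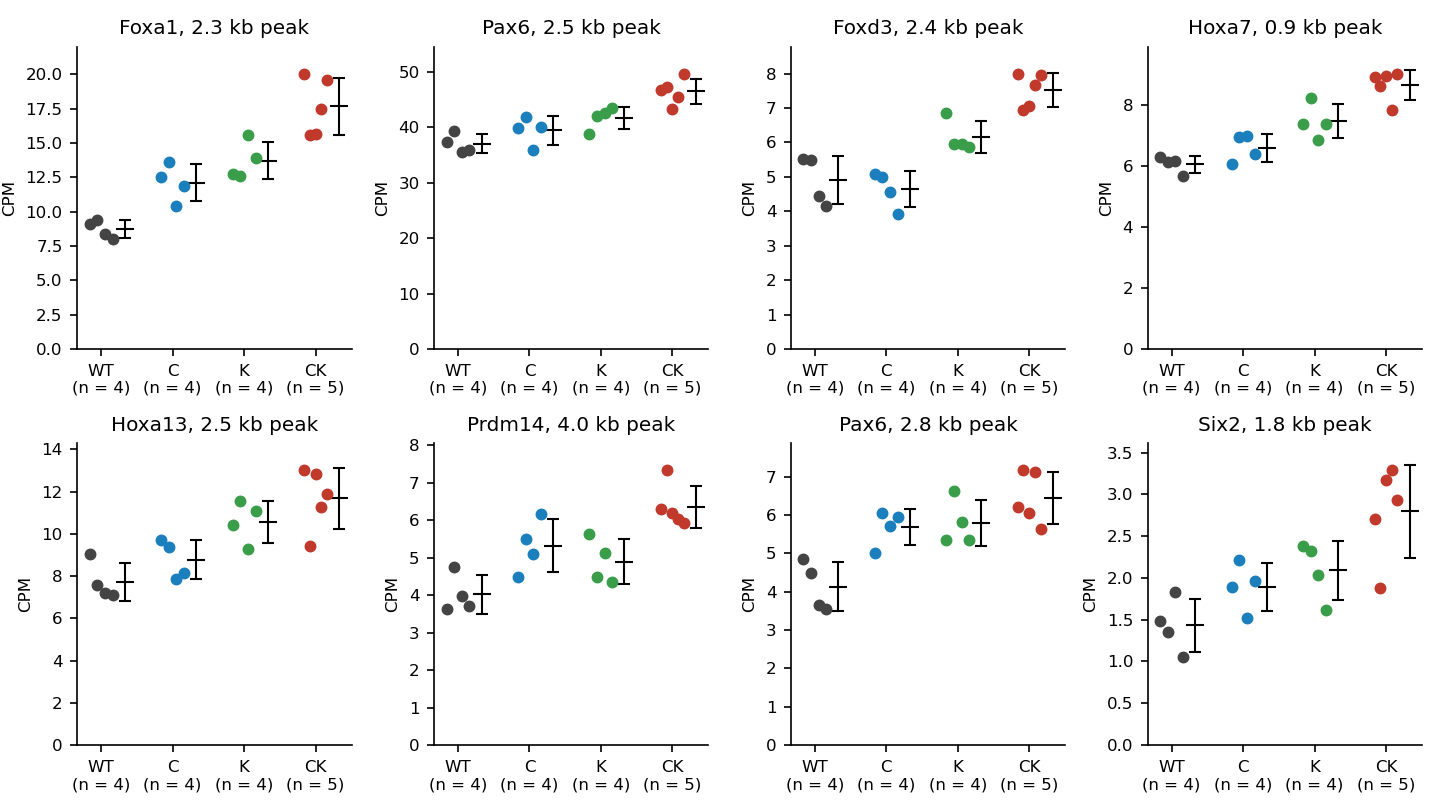
CPM in each mouse (points) with the mean and SD (bars) for the 8 member peaks with the lowest p in CK against WT, by genotype. Foxa1 shows no overlap between WT (8.03 to 9.40) and CK (15.6 to 19.99), and Six2, at 1.05 to 1.83 CPM in WT, shows the widest relative spread.

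HOX genes, which set position along the body axis, changed most in the HOXA cluster on chromosome 6. Of its 9 peaks 5 gained accessibility in CK, with a family median of 0.52 (log2). The Hoxa7 peak at chr6:52217070-52217979 had 6.28, 6.11, 6.14 and 5.65 CPM in WT and 8.91, 8.61, 8.95, 7.82 and 8.99 in CK (log2 0.52 ± 0.09, edgeR adjusted p = 0.000570). Hoxa13, which patterns the distal limb and urogenital tract, had 9.05, 7.57, 7.22 and 7.09 CPM in WT and 12.997, 9.42, 12.8, 11.3 and 11.9 in CK at chr6:52260019-52262554, a peak that also covers the noncoding Hottip start region (log2 0.60 ± 0.11, edgeR adjusted p = 0.000640). The genotypes were separated in both peaks, although by a small margin in Hoxa13.

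Hoxa10, a factor of the uterus and of blood progenitors, had 4.04, 4.70, 3.66 and 4.21 CPM in WT and 5.91, 6.62, 6.39, 6.77 and 5.13 in CK at chr6:52240124-52241366. Its change was 0.57 ± 0.12 (log2, edgeR adjusted p = 0.00252), and 0.53 with an adjusted p of 0.00352 with GC content bins. A peak shared by Hoxa10 and Hoxa9 (1.75 ± 0.396 CPM in WT, 3.06 ± 0.435 in CK, log2 0.80, edgeR adjusted p = 0.00715) and the Hoxa3 promoter (9.78 ± 1.47 and 12.8 ± 1.11, log2 0.39, edgeR adjusted p = 0.00947), which a TSS of Gm28308 shares, completed the HOXA gains. The upper Hoxa7 peak, with 9.87 ± 0.675 CPM in WT and 12.3 ± 1.02 in CK, was not called (edgeR adjusted p = 0.0152).

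In the HOXD cluster 2 of 9 peaks gained accessibility, with a family median of 0.43. Hoxd13, a digit patterning gene, had 2.09 ± 0.549 CPM in WT and 3.53 ± 0.599 in CK (edgeR adjusted p = 0.00327). Hoxd8 had 2.25 ± 0.513 and 3.93 ± 0.776 CPM (edgeR adjusted p = 0.00344). In each of them the lowest CK mouse was below the highest WT mouse, and most HOXD peaks were short, with a median length of 295 bp. None of the 7 HOXB peaks was called (edgeR; 2 had an unadjusted p under 0.05), and their median was 0.35. HOXB also held the largest fall among the members, which did not pass the test: a peak 1600 bp from Hoxb13, singled out after its values were seen, had 3.03 ± 0.702 CPM in WT and 2.49 ± 0.432 in CK (log2 -0.29 ± 0.16, edgeR adjusted p = 0.236).

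The HOXC cluster lies on chromosome 15, 4.05 to 4.16 Mb from Kmt2d and thus linked to the floxed allele of K and CK mice. Of its 7 peaks 1 was called. Hoxc4, a HOX gene that has been described as active in B cells, had 3.57, 2.98, 2.91 and 2.21 CPM in WT and 3.74, 5.65, 4.73, 4.18 and 4.55 in CK (log2 0.64 ± 0.16, edgeR adjusted p = 0.00694). The groups were apart by a narrow gap. Levels of the others in WT and CK were 4.39 ± 0.0728 and 6.05 ± 1.08 CPM (Hoxc6), 2.02 ± 0.569 and 3.09 ± 0.613 (Hoxc13), 7.74 ± 0.529 and 9.38 ± 0.531 (Hoxc10) and 5.47 ± 0.497 and 6.70 ± 0.804 (Hoxc9), with edgeR adjusted p values between 0.0147 and 0.0645. A short second Hoxc6 peak (0.42 CPM in WT) and a second Hoxc9 peak (1.47 CPM) had adjusted p values of 0.477 and 0.790. The C mice, which carry no floxed Kmt2d allele, had a HOXC sum of 29.6 ± 0.485 CPM, close to the 30.0 ± 2.42 of K mice and above the 24.4 ± 1.32 of WT. Without the HOXC peaks, 18 of 72 members were called in CK and the median was 0.37.

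Among PAX genes, 2 of 8 peaks gained accessibility, both in Pax6. The highest member, at chr2:105674178-105676718, had 37.2, 39.3, 35.5 and 35.9 CPM in WT and 46.7, 47.3, 43.3, 45.4 and 49.5 in CK. This was a small change of 1.25-fold (log2 0.33 ± 0.05, edgeR adjusted p = 0.000240), measured on a mean of 715 fragments per WT mouse. The peak at chr2:105667503-105670261, which also covers a Pax6os1 start, had 4.84, 4.49, 3.66 and 3.54 CPM in WT and 6.20, 7.16, 6.06, 7.12 and 5.65 in CK (log2 0.64 ± 0.12, edgeR adjusted p = 0.000766). The peaks differed widely in level, yet in both no CK mouse overlapped with WT. With GC content bins the lower peak was still called (0.57, adjusted p = 0.00179) and the higher was not (0.17, adjusted p = 0.0380).

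Other homeobox genes supplied 6 gains in 22 peaks. Six2, which keeps nephron progenitors undifferentiated, had 1.49, 1.36, 1.83 and 1.05 CPM in WT and 2.71, 1.88, 3.17, 3.29 and 2.94 in CK at chr17:85687460-85689254. The 1.94-fold change (log2 0.96 ± 0.19, edgeR adjusted p = 0.00118) rested on 28.0 fragments per WT mouse, and 1 CK mouse was only just above WT. Its neighbor Six3, a forebrain and eye factor, went from 1.74 ± 0.160 CPM in WT to 2.91 ± 0.474 in CK (edgeR adjusted p = 0.00368). Lhx1, which acts in the head organizer and kidney, had 15.2, 15.6, 12.9 and 15.4 CPM in WT and 21.7, 20.4, 17.99, 18.5 and 18.1 in CK (log2 0.39 ± 0.08, edgeR adjusted p = 0.00173).

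Msx1, a craniofacial and tooth factor, rose from 3.58 ± 0.252 to 5.34 ± 0.636 CPM (edgeR adjusted p = 0.00203). Irx3, a neural patterning gene, rose from 1.74 ± 0.414 to 2.91 ± 0.678 CPM (edgeR adjusted p = 0.00891). The Lhx9 peak of 874 bp beside the TSS rose from 5.92 ± 0.449 to 8.26 ± 0.335 CPM (edgeR adjusted p = 0.00991), and with a GC content of 38.1% it was the only gained member under 50% GC. Nkx6-1, whose CpG-dense promoter is printed above, had 7.10 ± 0.449 CPM in WT and 8.60 ± 1.33 in CK (log2 0.27 ± 0.12, edgeR adjusted p = 0.132), and -0.02 with GC content bins.

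Of the 11 peaks of GATA, SOX, TBX, WT1 and PRDM14 genes, 1 was called. Prdm14, which specifies germ cells and is absent from most somatic tissues, had 3.62, 4.75, 3.98 and 3.71 CPM in WT and 6.30, 7.32, 6.20, 6.03 and 5.93 in CK at chr1:13124998-13128950. The gap was clear, and the change of 0.66 ± 0.12 (log2, edgeR adjusted p = 0.000654) was 0.63 with GC content bins (adjusted p = 0.000830). Sox1 had 9.95 ± 1.446 CPM in WT and 12.1 ± 1.93 in CK and was not called (edgeR adjusted p = 0.0769). With GC content bins its change was -0.01.

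**Figure D4:**
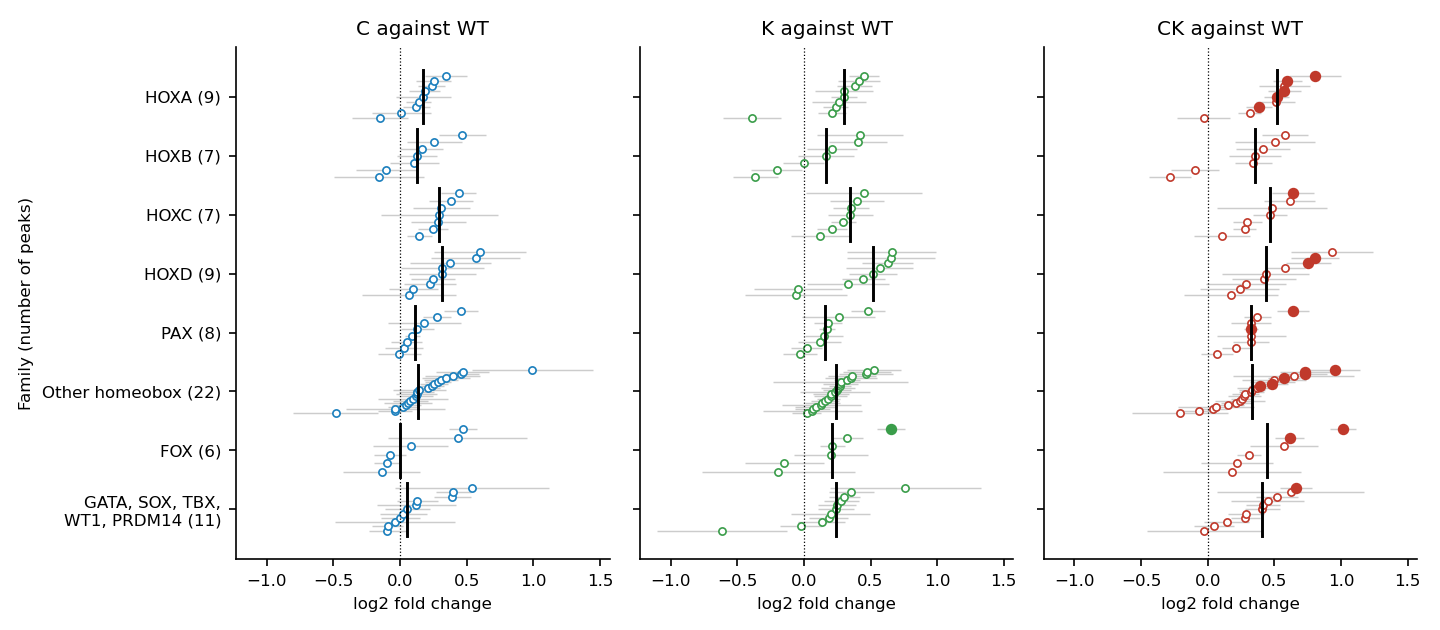
Fitted log2 fold changes (points) with SE (gray bars) of all 79 member peaks by family, for C, K and CK against WT, with called peaks filled and family medians as black lines. In CK the medians lie between 0.33 and 0.52, the gained peaks are spread over 7 of the 8 families, and HOXB holds none.

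Losing 1 copy of a single gene was compared with WT in the same fit, so all 3 contrasts share the WT mice and their values are given side by side only. In K against WT, 1 member peak, Foxa1, gained accessibility and 0 lost it (edgeR; 0.647% of all peaks gained and 0.828% lost, and 1.36% of promoter peaks gained), with a log2 fold change of 0.65 ± 0.11 (adjusted p = 0.00111). DESeq2 called 2, Foxa1 and Hoxa13 (1.11% of all peaks gained). The median over the members was 0.25, against 0.05 over promoter peaks, and 29 peaks had an unadjusted p under 0.05 (20.6% of all peaks). At adjusted p under 0.05, 4 were gained (2.57% of all peaks). Every K mouse was above every WT mouse in 13 peaks, against 5.42% of all peaks and 9.43% of promoter peaks.

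In C against WT, edgeR called 0 members in either direction (0.0596% of all peaks gained, 0.101% lost, and 0.0499% of promoter peaks gained). An unadjusted p under 0.05 was found for 19 (8.9% of all peaks), edgeR gave 1 at adjusted p under 0.05 (0.156%), and DESeq2 called 1, Foxa1 (0.116%). The median was 0.14, against -0.01 over promoter peaks, with 0.23 without WT replicate 1, 0.10 without WT replicate 4 and 0.075 without WT replicates 3 and 4. The change was above 0 for 66 of the 79 members, against 49.9% of all peaks and 46.2% of promoter peaks. Every C mouse was above every WT mouse in 9 peaks (2.89% of all and 3.13% of promoter peaks). The log2 fold changes against WT, given in the order C, K, CK, were 0.47, 0.65 and 1.02 for Foxa1. Foxd3 had -0.07, 0.33 and 0.62. Prdm14 had 0.40, 0.28 and 0.66, and the Lhx9 peak beside the TSS 0.46, 0.27 and 0.48. The order of C and K thus differed between members, although no difference between C and K was tested.

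The double heterozygote was then compared with each single one. Against K, edgeR called 0 members (0.00458% of all peaks gained), 11 had an unadjusted p under 0.05 (7.35% of all peaks), 10 of them higher in CK, and the median was 0.16. DESeq2 also called 0. Against C, 3 members were higher in CK (0.907% of all peaks and 2.28% of promoter peaks gained, 0.77% of all peaks lost): Foxa1 (0.54, edgeR adjusted p = 0.00189), Foxd3 (0.69, adjusted p = 0.00101) and Foxc1 (0.41, adjusted p = 0.00836), all of the FOX family, and the median was 0.22. Here 30 had an unadjusted p under 0.05 (21.2% of all peaks), 11 were gained at adjusted p under 0.05 (3.72%), and DESeq2 called 6 (1.61%). The 3 Foxc1 values against WT were -0.10, 0.21 and 0.31. Without C replicate 4, 1 of these calls was made, Foxd3. With GC content bins it was also 1, Foxd3, and 0 with the replicate number as a block added, within libraries with Y signal or within those without it. Whether the joint loss did more than both single losses added was asked by subtracting the C and K changes from that of CK. For this difference edgeR and DESeq2 called 0 members (0.00611% of all peaks above the sum and 0.00458% below it by edgeR), 2 had an unadjusted p under 0.05 (3.73% of all peaks), and the median was -0.06. The precision was limited: the difference was -0.11 ± 0.14 (SE) for Foxa1 and 0.04 ± 0.27 for Six2.

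Members and all promoter peaks differed in GC content, in level and in depth (medians of 62.0 and 367.5 fragments per WT mouse), among other features. Member peaks had a median GC content of 57.8% (range 38.1 to 76.6%), against 54.4% for all promoter peaks, and similar lengths (medians 1346 and 1299 bp). Among promoter peaks in the lowest quartile of WT level, 12.3% gained accessibility in CK and their median was 0.19, while 14 of the 68 members there (20.6%) gained it and their median was 0.41. In the highest quartile of GC content (over 59.4%), 18.3% of promoter peaks gained accessibility with a median of 0.15, and 11 of the 30 members there (36.7%) did, with a median of 0.52. In the lowest quartile (under 49.0%) 1.24% of promoter peaks gained it, and 1 of 6 members. The mean GC content of peak fragments averaged 52.9% ± 0.157 for WT, 52.9% ± 0.110 for C, 53.2% ± 0.172 for K and 53.2% ± 0.119 for CK. These means were alike in WT and C and higher in K and CK. However, K replicates 3 and 4 (both 53.03%) lay below WT replicate 2 (53.06%). Within WT the mean was 52.98% with Y signal and 52.74% without it. The part of GC content in the result was not tested. The fit with GC content bins centers each library within each bin over all peaks. It therefore also removes any change in accessibility that peaks of like GC content share, and cannot tell such a change from a technical shift.

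**Figure D5:**
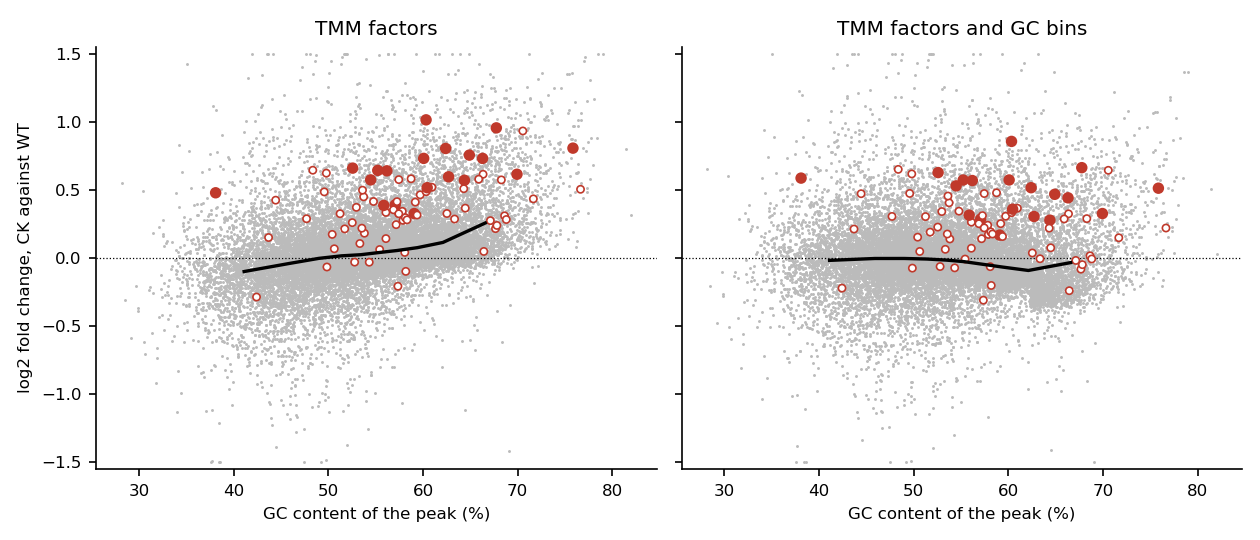
Log2 fold change of CK against WT by GC content of the peak (%), with TMM factors alone (left) and with GC content bins (right), for promoter peaks (gray; values beyond 1.5 are drawn at the edge) and members (circles, filled where called with TMM factors). The black line joins medians of 10 bins of the promoter peaks. It rises with GC content on the left and stays near 0 or below on the right, where the member median is 0.25. The bins were centered over all peaks, so the flatter line on the right follows in part from the fit itself.

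Position relative to the TSS separated the members as well. Of the 52 peaks over a TSS 18 gained accessibility in CK, with a median of 0.40, and of the 27 beside one 1 did, with a median of 0.28. The peaks beside a TSS were also smaller, with a median of 18.2 fragments per WT mouse against 73.0, so these counts differ in depth too. Among the 43 members with 50 or more fragments per WT mouse 13 gained accessibility, and among the 36 with fewer 6 did.

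Related genes outside the group were examined in the same way. For 71 further homeobox and lineage factor genes, of which 54 had a peak, 27 of 76 peaks that were no member peaks gained accessibility in CK, 0 lost it, and the median was 0.37, with 0.37 for the members as well. The gains ran from 0.29 (Lhx6) to 1.19 (Gsc, a factor of the embryonic organizer) and included En1 (1.16). In K, 6 of the 76 gained accessibility, against 1 of the 79 members. The median for K was 0.26 and for C 0.16. With GC content bins 9 of the 76 were called in CK, with a median of 0.24. A difference between these peaks and the members was not tested.

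With TMM factors alone, the Polycomb machinery showed no comparable gain. Among the 90 peaks of 44 Polycomb and opposing genes, 8 gained and 1 lost accessibility in CK, shares near those of all promoter peaks (7.34% and 1.9%), and the median was 0.01. Of 28 peaks of PRC2 genes 1 rose and 1 fell: the Aebp2 promoter peak at 41.3 ± 3.71 CPM in WT and 51.4 ± 5.05 in CK (log2 0.32, edgeR adjusted p = 0.00756), and a weak Eed peak at 1.18 ± 0.220 and 0.566 ± 0.249 CPM (log2 -1.07, edgeR adjusted p = 0.00795). A second Aebp2 peak fell in K (log2 -0.31, edgeR adjusted p = 0.00596). Ezh2, the catalytic subunit of PRC2, was at 77.2 ± 2.63 CPM in WT and 76.1 ± 2.75 in CK (log2 -0.02 ± 0.04, edgeR adjusted p = 0.793).

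Of 45 peaks of PRC1 genes 5 rose, at Pcgf5, Scmh1, Bcor (2 peaks) and Bmi1, a core PRC1 subunit (log2 0.52 for Bmi1, edgeR adjusted p = 0.00220). The other Bmi1 peak was at 14.6 ± 1.32 and 17.4 ± 2.60 CPM (adjusted p = 0.110). Of 17 peaks of opposing genes 2 rose, in Men1, a subunit of the MLL complexes (log2 0.25, edgeR adjusted p = 0.00812), and Bap1, a deubiquitinase that removes the PRC1 mark (log2 0.30, edgeR adjusted p = 0.00663). With GC content bins the PRC2 genes had 0 gains and 5 losses in CK, the PRC1 genes 3 and 6, and the opposing genes 0 and 3. Over the 90 peaks this was 3 gains (3.33%) and 14 losses (15.6%), with a median of -0.09. Promoter peaks had 3% gained and 8.3% lost with a median of -0.03, and all peaks 2.24% and 5.1%. The difference from promoter peaks was not tested. The main Pax5 promoter peak was at 122 ± 5.54 CPM in WT and 116 ± 3.54 in CK (log2 -0.07 ± 0.04, edgeR adjusted p = 0.206).

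Markers of the cells in the sort were read from their promoter peaks. The sum over 13 GC B cell genes ranged between 1395 and 1536 CPM for WT and between 1280 and 1396 for CK. For T cell genes it ranged between 115 and 122 CPM in WT and 104 and 125 in CK, and Cd3e, Cd3g, Cd4 and Cd8a had no consensus peak. For myeloid genes it was 20.7 to 21.7 CPM in WT and 18.9 to 25.04 in CK, without a peak at Lyz2 or Itgam. For plasma cell genes it was 285 to 303 CPM in WT and 292 to 307 in CK, and for stromal and endothelial genes 138 to 154 and 127 to 149, without a peak at Col1a2 or Vcam1. For erythroid and progenitor genes, where Gata1, Kit and Cd34 had no peak, it was 113 to 126 in WT and 125 to 131 in CK. Between WT and CK the ranges overlapped by less than the spread within either group for GC B cell genes, where 4 of 5 CK mice were below every WT mouse (means 1350 ± 44.1 CPM in CK and 1438 ± 66.9 in WT), and for erythroid and progenitor genes (127.5 ± 2.49 in CK and 119.8 ± 6.77 in WT). The part of such shifts in the members' gain was not tested. Single marker peaks that rose in CK lay at Gata2, itself a developmental factor of blood progenitors (1.81 ± 0.269 and 3.34 ± 0.383 CPM, edgeR adjusted p = 0.000381), and Pdgfra, a growth factor receptor of mesenchyme (12.5 ± 0.810 and 15.7 ± 0.833 CPM, edgeR adjusted p = 0.00379). They are named because they were called. The lists held 33 GC B cell, 5 T cell, 7 plasma cell, 6 myeloid, 7 erythroid and progenitor, and 8 stromal and endothelial peaks. Over all peaks 3.54% were gained, and marker peaks that fell are not listed here. Pdgfra did not move with its list, whose sum averaged 146 ± 6.75 CPM in WT and 141 ± 8.76 in CK. In bulk libraries, more cells with open promoters and more open promoters per cell cannot be told apart.

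Libraries had between 17483706 and 21857738 fragments in peaks. The floxed exons of Crebbp and Kmt2d were not checked here. Peaks over their start regions, which need not include those exons, were at 40.4 ± 1.79 CPM in WT and 45.2 ± 1.45 in CK for Crebbp, and 41.9 ± 2.34 and 44.2 ± 1.69 for Kmt2d, and say nothing about the deletions.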

How the data were processed

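ATAC-seq (Omni-ATAC) libraries of sorted splenic GC B cells from 17 mice were analysed, 1 library per mouse. The authors aligned reads to mm10 with the nf-core ATAC-seq pipeline, called consensus peaks and deposited raw fragment counts per peak from featureCounts 2.0.1, in which a fragment may count for overlapping peaks. CB and CC samples lack columns in this table and were not analysed here.

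TSSs came from GENCODE M21, promoter sequences from RefSeq (GRCm38.p6). Counts were scaled by TMM factors, and peaks with fewer than 10 counts in all would have been left out (there were 0), so all 79 members were tested. One edgeR 4.0.16 quasi-likelihood fit (R 4.3.3, limma 3.58.1) with 1 coefficient per genotype covered all 65483 peaks. Calls used a Benjamini-Hochberg adjusted p under 0.01, after the study's methods, whose cutoff on fold change was kept as an alternative. The fit was tested on simulated counts. Sums and levels are CPM with TMM scaling. DESeq2 1.42.0, other normalizations, filters, thresholds, windows, covariates, a replicate block and leaving out each mouse were alternatives. P-values measure the spread between mice. Same-numbered mice of WT and C deviated together from their genotype means (4 pairs, correlations 0.14 to 0.22). However, WT replicate 2 correlated slightly more with C replicate 1 (0.166) than with C replicate 2 (0.158). Replicate numbers were taken as pairs for C against WT alone. The alternative fit with a replicate block covered all 17 libraries, so it blocked same-numbered mice in every contrast. The main fit was unpaired in every contrast, C against WT included. This pairing comes from the data, not the labels, and paired mice were also alike in Y signal.

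Named were members called in C, K or CK, the 10 with the lowest p in CK, the 8 highest and 5 lowest in WT, those within 10 Mb of Crebbp or Kmt2d, and called Polycomb genes with Pax5, Ezh2 and Bmi1. Members and lists were chosen with earlier results of these data known.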

Additional observations from a re-analysis of the deposited data

Results flagged for a closer look

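For 2 summaries and 32 named peaks, each genotype was examined for a mouse far from the rest of its group by Dixon's criterion, and 8 of the 136 groups held one. Chance gives about 6.8. Averaged over the member peaks, the log2 CPM of K replicate 4 was 1.57, against 1.69 to 1.71 in the other K mice. The Foxd3 promoter was at 6.85 CPM in K replicate 1 (others 5.86 to 5.97), Prdm14 at 7.32 in CK replicate 2 (others 5.93 to 6.30) and Lhx1 at 12.9 in WT replicate 3 (others 15.2 to 15.6). At Hoxc6, the larger peak was at 4.38 CPM in K replicate 4 (others 5.95 to 6.21) and the smaller at 1.06 in K replicate 1 (others 0.369 to 0.471). The upper Hoxa7 peak was at 14.1 CPM in CK replicate 5 (others 11.5 to 12.2), and the low Gata4 peak at 1.38 in C replicate 4 (others 0.607 to 0.722). No mouse was left out of the report for these values.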

How the results depend on the processing

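The median member change stayed above 0 in C, K and CK under each alternative that gave one, and no member was lost at adjusted p under 0.01 in any contrast or alternative. The number gained in CK against WT was 19, and it was 6 with GC content bins, 8 with the replicate block and GC content bins, 4 with total Y chromosome signal as a covariate, 12 with a fold above 1.5 required and 37 at adjusted p under 0.05 (medians 0.25 with GC content bins and 0.26 with the block added). The total Y chromosome signal did not follow the presence of Y signal, as described above. Leaving out 1 mouse gave 10 to 19. Added after seeing the data, libraries without Y signal gave 1, those with it 1, and leaving out WT replicates 3 and 4 gave 1 with a median of 0.26. In K against WT (1 gained) DESeq2 gave 2 and adjusted p under 0.05 gave 4. Libraries with Y signal, libraries without it and leaving out WT replicates 3 and 4 each gave 0, and the median of 0.25 was 0.37 without Y signal and 0.13 without WT replicates 3 and 4. In C against WT (0) DESeq2 gave 1 and adjusted p under 0.05 gave 1, and the median of 0.14 ranged from 0.10 to 0.23 with 1 mouse left out and was 0.075 without WT replicates 3 and 4. In CK against C (3) the count was 6 with DESeq2, 1 with GC content bins, 5 with the replicate block, 0 with the block and GC content bins, 6 with presence of Y signal as a covariate, 0 within libraries without Y signal, 0 within those with it, 12 at adjusted p under 0.05, of which 1 was lost, 1 with a fold above 1.5 and 1 to 4 with 1 mouse left out. For most of these alternatives the share of all peaks called is not given here, and fits with fewer mice have less power for every peak. The cause of these shifts was not tested.

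The main fit used no pairs. In C against WT, where same-numbered mice were treated as pairs, the replicate block changed no member's call (0 members, median 0.15). In the other comparisons not every pair correlated above 0.1 (12 of all 24, range -0.09 to 0.22, and 10 mice matched best with their own number), so there the numbers were not taken as pairs, although the pairs of replicate 1 were all above 0.1. The replicate block still applied to every contrast of that fit. In it CK replicate 5 stands alone, and it gave 23 gains in CK against WT and a median of 0.38.

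Of single peaks, the direction turned mostly where the change was small. In C against WT, the Hoxd13 value went to -0.18 with total Y signal, -0.061 within libraries with Y signal and -0.15 without WT replicates 3 and 4 (with 1 mouse left out, -0.037 to 0.26). The peak shared by Hoxa10 and Hoxa9 went to -0.013 with loess offsets, -0.030 with GC content bins, -0.039 with the block and GC content bins, -0.45 with total Y signal, -0.51 within libraries with Y signal and -0.17 without WT replicates 3 and 4 (-0.19 to 0.15). The low Gata4 peak went to -0.42, -0.36 and -0.13 with total Y signal, within libraries with Y signal and without WT replicates 3 and 4 (-0.19 to 0.33), Sox1 to 0.12 within libraries without Y signal, Foxc1 to 0.048 with total Y signal, and the small Hoxc6 peak ranged from -0.16 to 0.47 with 1 mouse left out. In K against WT, Foxc1 went to -0.0054 with GC content bins and -0.0074 with the block added, and within libraries with Y signal Hoxa3 went to -0.00019, Lhx2 to -0.0052, Gata4 to -0.058 (-0.051 without WT replicates 3 and 4) and Hoxd10 to 0.16 (-0.36 to 0.21 with 1 mouse left out). The small Hoxc6 peak ranged from -0.015 to 0.63 and the small Hoxc9 peak from -0.020 to 0.28. In CK against WT, Sox1 went to -0.0067 with GC content bins and -0.082 with the block added, Foxc1 to -0.014 with both, the small Hoxc6 peak to -0.10 within libraries with Y signal, and the small Hoxc9 peak to -0.089 with total Y signal (-0.0019 to 0.17 with 1 mouse left out). None of the 19 peaks gained in CK turned its direction there. Depth limits the 36 members with fewer than 50 fragments per WT mouse.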
